A study of Mus musculus with 26 samples.

Results

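Ribosome biogenesis genes were read in a mouse model of Group3 medulloblastoma, a cerebellar tumor that often overexpresses MYC. The 38 genes were taken by name from the steps of nucleolar ribosome assembly, and 35 of them were measured among 17097 genes on the arrays. Tsr1, whose probe set lists several gene symbols, and Gnl3 and Mybbp1a, for which the table used here holds no single-gene probe set, were not analysed here. Each gene is given as the log2 intensity of its probe set, the group of short probes that reads it. Where a gene had several single-gene probe sets, the one with the highest mean over the 26 arrays was taken.

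All cells and tumors were of the C57BL/6 strain and all lacked Trp53 and Cdkn2c, the controls included. Group3 tumors additionally carried Myc and were labelled medulloblastoma tumors. They were sampled untreated (5 arrays), as secondary tumors (3 arrays), or after pemetrexed (2 arrays), gemcitabine (3 arrays) or both drugs (3 arrays). Group3 neurospheres (7 arrays), free-floating cultures labelled medulloblastoma cells, carried Myc too. Trp53 Cdkn2c neurospheres (3 arrays), labelled granule neural progenitors, did not carry Myc; the design text places such neurospheres at P7. Pemetrexed is an antifolate and gemcitabine a nucleoside analogue. The labels used here give no dose, treatment time or age of the tumor-bearing mice, and do not say how many lines, clones or animals the arrays represent.

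A title code marks each array, dka on 12 and mmm on 14, and what the letters stand for is not given. Secondary tumors and Trp53 Cdkn2c neurospheres occur under dka alone, and drug-treated tumors under mmm alone. Untreated tumors (replicates 1 to 3 dka, 4 and 5 mmm) and Group3 neurospheres (replicates 1 to 3 dka, 4 to 7 mmm) were present under both codes, so tests were made within a code, apart from a test of the difference between codes. Levels set side by side across codes are descriptions only. Array medians lay between 4.65 and 4.82. Values ran from 2.56 to 13.9 on dka arrays and from -0.41 to 16.1 on mmm arrays other than neurosphere replicate 7, which ran from 2.64 to 13.7. Over all probe sets, the mean of mmm neurosphere replicates 4 to 6 differed from the mean of the dka neurospheres by an SD of 0.132, although each of them alone differed from it by 0.378 to 0.551. Replicate 7 differed from it by 0.563, and mmm results with neurospheres are given with and without it. Whether the mmm arrays were adjusted towards the dka set before deposit is not given in the sources used here, so mmm differences, the difference between codes and any match of levels across codes may depend on such a step. No pair of arrays held the same values; the closest pair, secondary tumor replicates 2 and 3, differed by an SD of 0.292.

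As background, a cell makes ribosomes in the nucleolus. RNA polymerase I transcribes a long precursor of ribosomal RNA; small nucleolar ribonucleoproteins (snoRNPs) guide its chemical modification, with box C/D particles directing methylation and box H/ACA particles directing pseudouridylation. The small subunit processome and the large subunit assembly factors then fold, cut and export the parts. Many genes of this pathway are known transcriptional targets of MYC, and growing progenitor and tumor cells use the pathway heavily.

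The 35 genes covered a wide range of signal. Npm1, a nucleolar histone and ribosome chaperone, was the brightest, at 12.6 to 13.3 across the 26 arrays. Ncl, the nucleolin gene of ribosomal RNA transcription and processing, was read by a probe set with a mean of only 4.72, at the level of the array medians, and Wdr75, a small subunit processome protein, had a mean of 5.78. Values for these dim probe sets carry little range for a fall. At the other end, Npm1 lies close to the highest value on any dka array, 13.9, which leaves little range for a rise. The mean over the 35 genes was 9.86 to 10.03 in the dka tumors and 9.93 to 10.16 in the secondary tumors, against 9.10 to 9.22 in dka Group3 neurospheres and 8.84 to 9.02 in Trp53 Cdkn2c neurospheres. These 4 dka groups did not overlap, apart from tumors and secondary tumors with each other. Among mmm arrays the mean was 9.29 and 9.49 after pemetrexed, 9.11 to 9.50 after gemcitabine and 9.18 to 9.52 after both drugs, against 9.04 and 9.07 in untreated tumors; mmm neurospheres ran from 8.86 to 9.34.

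**Figure D1:**
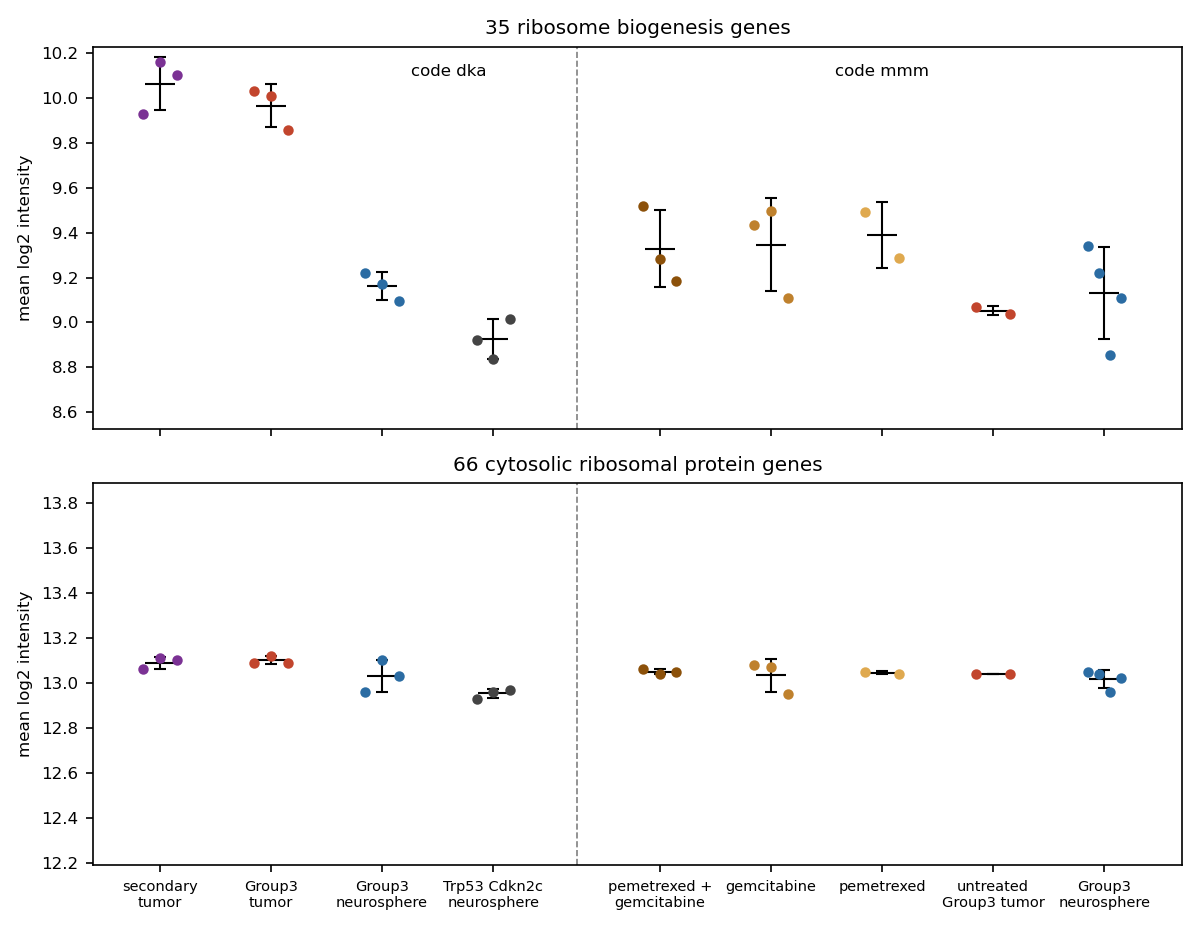
Mean log2 intensity per array (vertical axis) of the 35 ribosome biogenesis genes (upper panel) and of 66 cytosolic ribosomal protein genes (lower panel), by group, with dka groups left of the dashed line and mmm groups right of it. Points are arrays, and bars are the group mean ± SD. In the upper panel the dka tumors and secondary tumors lie at 9.86 to 10.16, above every other dka array. In the lower panel all 26 arrays lie between 12.93 and 13.12, close to the highest value on any dka array, 13.9.

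The first comparison was of Group3 neurospheres with Trp53 Cdkn2c neurospheres (dka, 3 arrays each), which asks how the pathway differs between cultures labelled with and without Myc on the same deletions. Of the 35 genes, 6 rose in Group3 neurospheres (Nop16, Wdr12, Rcl1, Ddx21, Imp4 and Nhp2) and 1, Wdr75, fell, by limma at a Benjamini-Hochberg adjusted p under 0.05 over all 17097 genes. These 7 calls compare with 22.6% of all genes called in this comparison (13.4% higher, 9.22% lower), so the share called was no larger than that of the array. The median log2 difference of the 35 genes was 0.28, against 0.08 over all genes. Of the 35 differences 28 were positive, as were most differences over all genes. Arrays of the 2 groups did not overlap for 16 genes that were higher and 3 that were lower, where this held for 24.8% and 16.3% of all genes. With each array scaled to the same median absolute deviation, 2 of the 35 genes were called instead of 7. Over all genes, 1236 were then called higher and 1347 lower, instead of 2288 and 1577.

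Nop16, a large subunit assembly factor, read 9.65, 9.48 and 9.64 in Group3 neurospheres, against 7.81, 7.85 and 8.59 in Trp53 Cdkn2c neurospheres. The 2 sets of arrays did not overlap, and the log2 difference was 1.51 (SE 0.22, limma adjusted p = 6.45e-05). Wdr12, which with Pes1 and Bop1 forms the PeBoW complex of large subunit maturation, read 9.34, 9.22 and 9.57 in Group3 neurospheres, against 8.61, 8.45 and 8.71. It rose by 0.79 (SE 0.18, adjusted p = 0.00362), also without overlap; its partners Pes1 (0.41, adjusted p = 0.0960) and Bop1 (0.45, adjusted p = 0.0926) did not pass. The other probe set of Wdr12 gave 0.18. Rcl1, which in yeast works with Bms1 in the small subunit processome, read 8.96, 9.15 and 8.83 in Group3 neurospheres, against 8.30, 8.18 and 8.39, a rise of 0.69 (SE 0.15, adjusted p = 0.00184).

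Wdr75 went the other way. It read 5.28, 5.61 and 4.99 in Group3 neurospheres, against 6.47, 6.77 and 6.45 in Trp53 Cdkn2c neurospheres, and fell by 1.27 on the log2 scale (SE 0.27, adjusted p = 0.00181). Its Group3 arrays lie close to the array medians, so the measured size may be a lower bound. No box C/D gene and neither RNA polymerase I gene passed: Polr1a, the catalytic subunit, differed by 0.13 (adjusted p = 0.754) and Polr1b, the other large subunit, by 0.33 (adjusted p = 0.434). Rrp12, of ribosomal particle export, averaged 7.46 ± 0.57 in Group3 neurospheres and 7.46 ± 0.47 in Trp53 Cdkn2c neurospheres (SD, n = 3 each).

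The other genes of the pathway were read from wider lists. Of 103 other ribosome biogenesis genes measured, 13 rose and 3 fell (median 0.14), with Polr1e (1.34) and Polr2f (1.27), both polymerase subunit genes, and Nsa2 (1.11), of large subunit assembly, among the largest rises. Of 66 cytosolic ribosomal protein genes, 3 rose and none fell, with a median of 0.04; with scaled arrays the medians of these lists were -0.04 and -0.21. The same arrays differed widely in cell-type markers: 7 of 7 measured granule lineage markers fell in Group3 neurospheres, with a median of -5.30, 9 of 15 microglia and macrophage markers fell, and 4 of 12 mature neuron markers fell and 1 rose. Of the rest, 2 of 8 astrocyte markers rose and 1 fell, 3 of 12 proliferation markers fell and 1 rose, 2 of 4 red blood cell genes fell, 1 of 12 endothelial and 1 of 8 fibroblast and pericyte markers fell, and 0 of 7 oligodendrocyte markers passed. Their part in the ribosome biogenesis values was not tested.

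Myc and Mycn were read once as a check of the genotype. The single Myc probe set averaged 7.99 ± 0.26 in dka Group3 neurospheres and 8.43 ± 0.55 in Trp53 Cdkn2c neurospheres (SD, n = 3 each), so it did not bear out the label. The brightest Mycn probe set averaged 12.7 ± 0.26 in Group3 neurospheres and 4.59 ± 0.20 in Trp53 Cdkn2c neurospheres, while its other 2 probe sets averaged 4.64 and 3.66 in Group3 neurospheres and 11.5 and 7.47 in Trp53 Cdkn2c neurospheres. Where these probes lie relative to the introduced sequence was not examined. Which gene of the family was introduced is thus known here from the labels alone, and Group3 stands below for the arrays so labelled.

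Untreated dka tumors were then set against dka Group3 neurospheres, 3 arrays each, asking how the pathway differs between tumors and cultures that share the genotype. Of the 35 genes, 29 rose in tumors and none fell, where 8.81% of all genes rose and 9.74% fell (18.6% called in either direction). The median log2 difference of the 35 genes was 0.73, against 0.00 over all genes, and all 35 differences were positive. For 32 genes every tumor array lay above every neurosphere array, which held for 17.3% of all genes, and for no gene every one below, which held for 17.8%. With arrays scaled to the same median absolute deviation 19 genes rose and none fell. In bulk RNA a difference in the share of cells of one type and a difference in RNA per cell cannot be told apart.

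**Figure D2:**
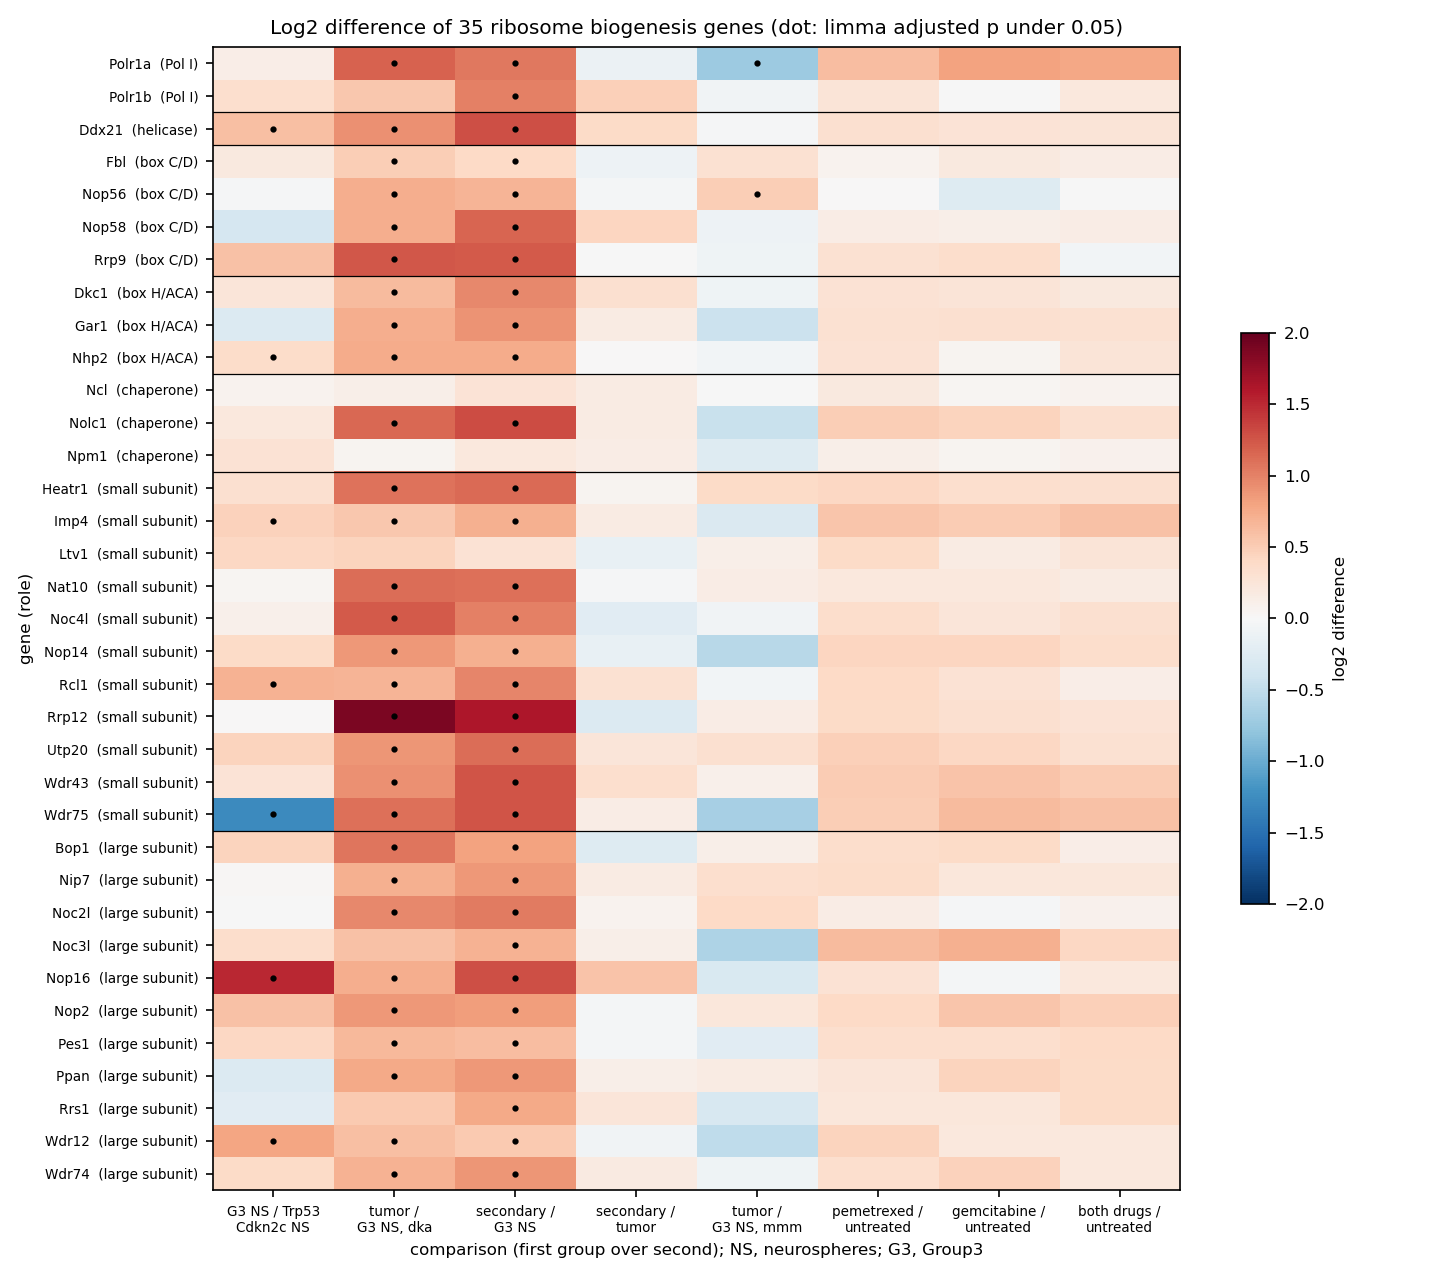
Heat map of log2 differences (colour, from -2 to 2) of the 35 ribosome biogenesis genes (rows, grouped by role) in 8 comparisons (columns, first group over second); a dot marks a limma adjusted p under 0.05. Dots fill most of the 2 columns of dka tumors and secondary tumors over neurospheres (29 and 32 genes), and the 3 drug columns hold mostly pale red cells with no dot.

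By role, 10 of 11 small subunit processome genes rose, with a median of 0.92. Rrp12 had the largest rise, reading 9.33, 9.65 and 9.08 in tumors, against 8.02, 7.48 and 6.89 in neurospheres. Every tumor array was above every neurosphere array, and the difference was 1.89 (3.71-fold, SE 0.28, adjusted p = 0.000125). Noc4l, which in yeast acts with Nop14 on the small subunit, read 9.94, 9.85 and 9.38 in tumors, against 8.76, 8.26 and 8.46 in neurospheres. It rose by 1.23 (SE 0.22, adjusted p = 0.000539), and Nop14 itself rose by 0.86 (adjusted p = 0.00704). The gene of this group that did not pass was Ltv1, a late small subunit factor, at 0.44 (adjusted p = 0.253).

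All 4 box C/D genes rose. Rrp9, the protein specific to the U3 particle, read 9.45, 9.57 and 9.53 in tumors, against 8.37, 8.29 and 8.16 in neurospheres, a rise of 1.24 (SE 0.25, adjusted p = 0.00151). Fbl, the methyltransferase of these particles, had the smallest rise that passed among the 35 genes, 0.50 (adjusted p = 0.00384), and the scaffold genes Nop56 and Nop58 each rose by 0.73. The 3 box H/ACA genes rose by similar amounts: Dkc1, the pseudouridine synthase, by 0.64, and its partners Gar1 by 0.73 and Nhp2 by 0.74. Every measured gene of the 2 snoRNP classes thus passed, with rises between 0.50 and 1.24.

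Among the remaining roles, Polr1a rose by 1.18 (adjusted p = 0.00109), reading 9.48, 9.36 and 8.99 in tumors, against 8.04, 8.33 and 7.91 in neurospheres, while Polr1b, at 0.54, did not pass (adjusted p = 0.184). Ddx21, a nucleolar RNA helicase, rose by 0.91 (adjusted p = 0.000581). Nolc1, a chaperone of snoRNPs, rose by 1.15 (adjusted p = 0.000302), whereas Npm1 read 12.94 to 13.07 in tumors, against 12.79 to 13.02 in neurospheres, and differed by 0.06 (SE 0.11, adjusted p = 0.795). Ncl did not pass either, at 0.12 from its dim probe set. Of 11 large subunit factors, 9 rose, from 0.59 (Wdr12) to 1.07 (Bop1); Rrs1, of the 5S particle, and Noc3l were positive at 0.52 and 0.58 but did not pass (adjusted p = 0.0546 and 0.0834). A second probe set of Imp4, a U3 particle protein, gave -0.43 where the brighter one gave 0.54, so the direction for Imp4 depends on the probe set.

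**Figure D3:**
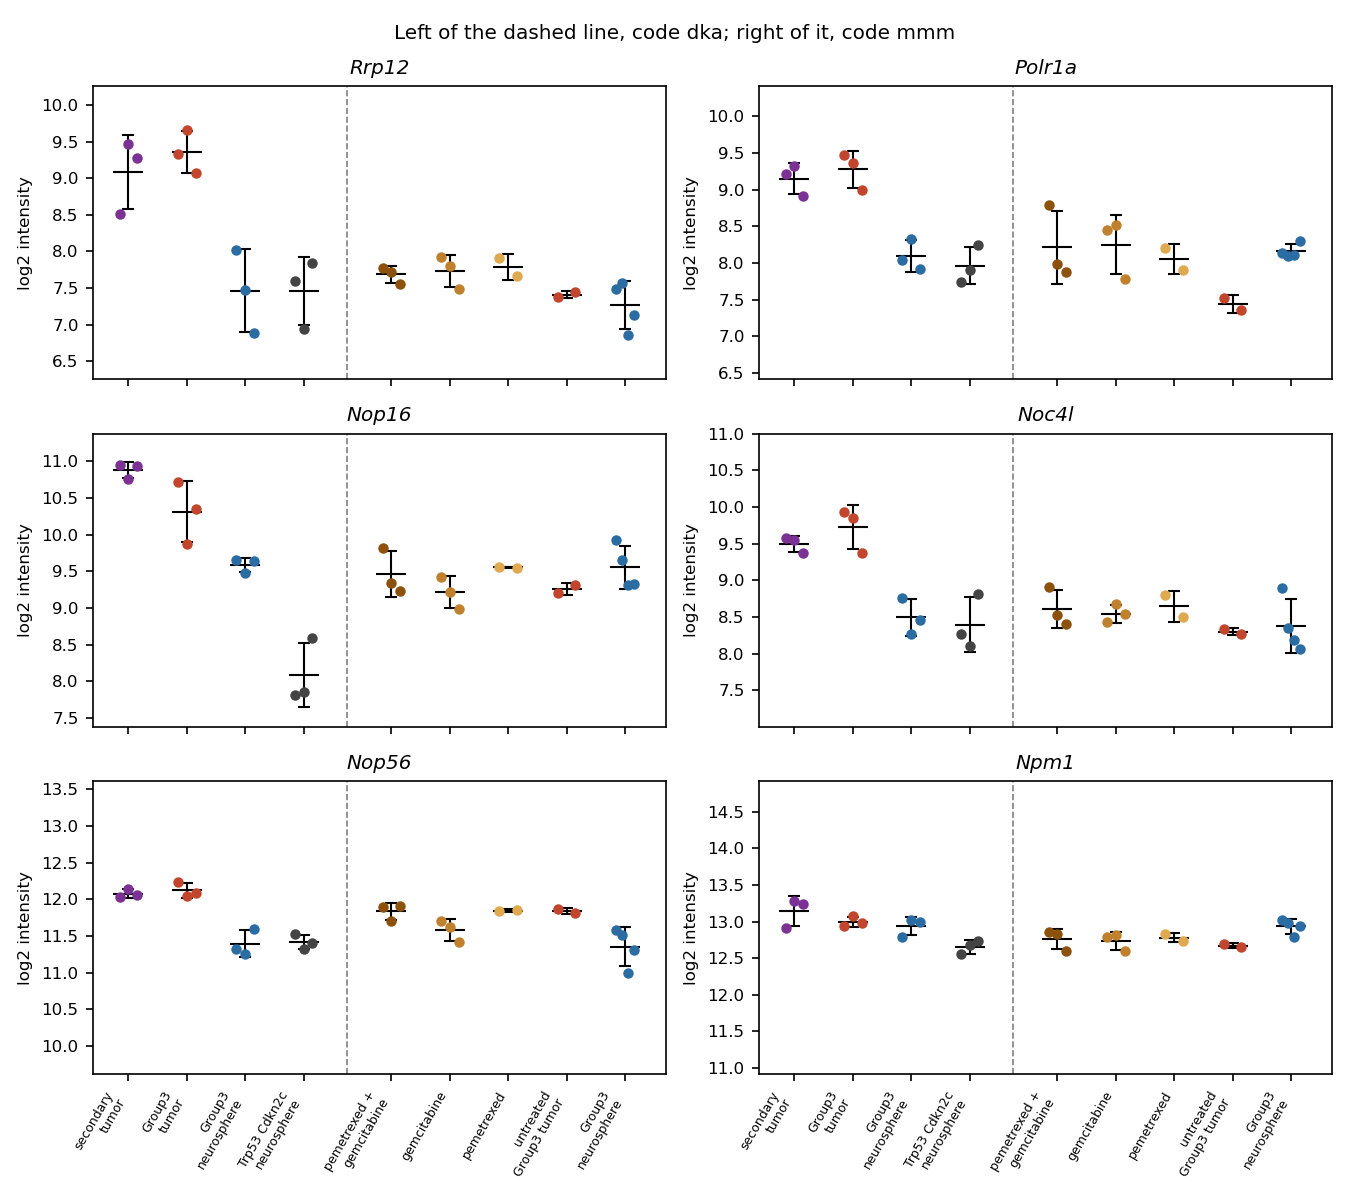
Log2 intensity (vertical axis) on every array for Rrp12, Polr1a, Nop16, Noc4l, Nop56 and Npm1, by group, with dka left of the dashed line and mmm right of it; points are arrays and bars are the group mean ± SD. Rrp12 lies between 9.08 and 9.65 in dka tumors, against 6.89 and 8.02 in dka Group3 neurospheres, while Npm1 stays between 12.6 and 13.3 in every group.

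Other genes of the pathway were read in the same comparison. Of the 103 other ribosome biogenesis genes, 39 rose and 1 (Polr2f, -0.51) fell, with a median of 0.44. Large subunit factors (21 of 47) and small subunit factors (16 of 41) made up most of these, with Rrp1b (1.30), Nle1 (1.28) and Nol8 (1.15) among the largest; of 15 other genes of RNA polymerase I and ribosomal DNA transcription 2 rose, among them Twistnb (1.03). Of 66 cytosolic ribosomal protein genes, 1 (Rpl36a, 0.31) rose and none fell, and their median was 0.06 (0.57 with scaled arrays, where none passed); many genes of this family have near-identical copies that one probe set may read together. Markers of other cells differed between tumors and cultures, most of them higher in tumors. Microglia and macrophage markers rose for 10 of 15, with array means of 6.08 to 6.54 in tumors, against 3.88 to 4.06 in neurospheres; mature neuron markers rose for 6 of 12, with array means of 6.18 to 6.65 in tumors, against 4.44 to 5.03. Endothelial markers rose for 11 of 12, fibroblast and pericyte markers for 7 of 8, and granule lineage and oligodendrocyte markers for 2 of 7 each, as did 2 of 4 red blood cell genes. Of the 12 neuron markers 1 fell, and astrocyte markers ran lower, with 2 of 8 falling and array means of 4.93 to 7.30 in tumors, against 6.85 to 7.29. Proliferation markers rose for 3 of 12, with array means of 10.2 to 10.3 in tumors and 9.42 to 10.2 in neurospheres. The part of these in the 29 rises was not tested.

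Promoter sequence was examined for the E-box CACGTG, the site that MYC and MAX are known to bind, because the genes moved together in dka tumors. RefSeq promoters of GRCm38.p6 were matched for 30 of the 35 genes (33 promoters); Fbl, Npm1, Rrp12, Bop1 and Rrs1 were not in the table. Within the 250 bases before the start site, on both strands, CACGTG was present in 2 of 33 promoters (6.06%), against 1978 of 32851 promoters of all genes (6.02%). The related form CACGCG, read as CGCGTG on the opposite strand, was present in 3 of 33 (9.09%), against 2502 of 32851 (7.62%). Neither share stands apart from that of all promoters, and no match says only that these letters are absent from this window. The 5 matches are printed below with the motif in capitals, all 5′ to 3′ on the plus strand, since they show which of the genes carry the sequence. Nop2 (chr6:125131793-125131858) and Imp4 (chr1:34439678-34439743) hold the E-box, 54 and 115 bases before the start; Nip7 (chr8:107056806-107056871), Nolc1 (chr19:46075792-46075846) and Pes1 (chr11:3963725-3963763) hold the related form, 35, 19 and 241 bases before it.
Nop2: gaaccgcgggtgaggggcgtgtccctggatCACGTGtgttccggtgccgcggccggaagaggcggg
Imp4: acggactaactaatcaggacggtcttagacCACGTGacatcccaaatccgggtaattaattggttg
Nip7: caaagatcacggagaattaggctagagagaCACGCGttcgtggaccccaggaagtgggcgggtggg
Nolc1: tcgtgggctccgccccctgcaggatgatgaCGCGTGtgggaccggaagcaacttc
Pes1: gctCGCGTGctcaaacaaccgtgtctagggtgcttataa
In dka tumors against dka Group3 neurospheres these 5 genes rose by 0.87 (Nop2, a ribosomal RNA methyltransferase), 0.54 (Imp4), 0.71 (Nip7, a large subunit factor), 1.15 (Nolc1) and 0.65 (Pes1), inside the range of the other genes. The wider list of other ribosome biogenesis genes held CACGTG in 10 of 114 promoters (8.77%) and the related form in 25 (21.9%), and ribosomal protein genes held each in 7 of 68 (10.3%).

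The dka tumors were next set against Trp53 Cdkn2c neurospheres. Of the 35 genes, 29 rose in tumors and none fell, where 9.15% of all genes rose and 6.45% fell (15.6% called); the median log2 difference was 1.08, against 0.08 over all genes. For 32 genes the tumor arrays all lay above, and for 0 all below, where 22.1% and 14% of all genes did so. This comparison shares the tumor arrays with the one above. Nop16 led, reading 10.71, 9.88 and 10.35 in tumors, against 7.81, 7.85 and 8.59 in Trp53 Cdkn2c neurospheres, a rise of 2.23 (SE 0.22, adjusted p = 1.60e-06). Its dka Group3 neurosphere arrays, at 9.48 to 9.65, lay between both without overlap. Rrp12 rose by 1.89 (SE 0.28, adjusted p = 0.000140) and Rrp9, at 8.16, 7.70 and 7.21 in Trp53 Cdkn2c neurospheres, by 1.83 (SE 0.25, adjusted p = 4.72e-05).

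The genes that did not pass here were Wdr75, Ncl, Rrs1, Nop58, Gar1 and Ppan. Wdr75, whose level was low in dka Group3 neurospheres, read 6.30, 6.51 and 6.37 in tumors, against 6.47, 6.77 and 6.45 in Trp53 Cdkn2c neurospheres (difference -0.17, adjusted p = 0.748). Of the 103 other ribosome biogenesis genes, 52 rose and 1 fell (median 0.64), and of 66 ribosomal protein genes 6 rose and none fell (median 0.09). In this comparison 0 of 12 mature neuron markers, 0 of 15 microglia and macrophage markers and 0 of 12 proliferation markers passed in either direction, with medians of -0.15, 0.10 and 0.10. Array means of the neuron markers overlapped, at 6.18 to 6.65 in tumors and 6.46 to 6.72 in Trp53 Cdkn2c neurospheres. Other cell markers did move: endothelial markers rose for 6 of 12 (median 0.70) and fibroblast and pericyte markers for 4 of 8 (median 1.61). Granule lineage markers fell for 5 of 7 (median -1.97), as did 1 of 8 astrocyte markers and 1 of 4 red blood cell genes, while 0 of 7 oligodendrocyte markers passed (median 1.94). Their part in the 29 rises was not tested.

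Secondary tumors, 3 dka arrays, were set against the same dka neurospheres. Of the 35 genes, 32 rose and none fell, where 10.2% of all genes rose and 14.5% fell (24.6% called); Ncl, Npm1 and Ltv1 did not pass. The median was 0.90, against -0.01 over all genes. For 30 genes the arrays of secondary tumors all lay above, and for 0 all below (17.6% and 21.5% of all genes). Rrp12 read 8.51, 9.46 and 9.27 in secondary tumors, against 8.02, 7.48 and 6.89 in neurospheres, and rose by 1.62 (SE 0.28, adjusted p = 0.000339). Nolc1 read 11.10, 11.21 and 10.93 in secondary tumors, against 9.94, 9.73 and 9.64, a rise of 1.31 (SE 0.19, adjusted p = 5.54e-05). Ddx21 read 10.60, 10.80 and 10.60, against 9.32, 9.44 and 9.35, and rose by 1.29 (SE 0.16, adjusted p = 1.23e-05). None of these 3 genes overlapped between the groups. Of the other ribosome biogenesis genes 53 of 103 rose and 2 fell (median 0.55), while 0 of 66 ribosomal protein genes passed (median 0.07). With scaled arrays 65 of the 66 ribosomal protein genes rose, by a median of 1.86. The median of all genes was then 0.35, with 5739 of them higher and 1168 lower. Cell markers moved here too. Microglia and macrophage markers rose for 13 of 15, with array means of 6.18 to 7.51 in secondary tumors, against 3.88 to 4.06 in neurospheres; endothelial markers rose for 11 of 12, fibroblast and pericyte markers for 3 of 8, granule lineage markers for 2 of 7, red blood cell genes for 2 of 4 and proliferation markers for 3 of 12. Mature neuron markers rose for 4 of 12 and fell for 1, astrocyte markers fell for 3 of 8 (median -1.70), and 0 of 7 oligodendrocyte markers passed. Their part in the 32 rises was not tested.

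Secondary tumors were also set against the untreated dka tumors. None of the 35 genes passed, where 0.538% of all genes were called (0.263% higher, 0.275% lower); at an unadjusted p under 0.05 there were 4 of the 35 and 2175 of all genes. The median difference was 0.12, against -0.05 over all genes, with 22 positive and 13 negative. Nop16 had the largest difference, with 10.95, 10.76 and 10.94 in secondary tumors, against 10.71, 9.88 and 10.35 in tumors (0.57, SE 0.22, adjusted p = 0.282). Polr1b read 8.80, 8.15 and 8.31 in secondary tumors, against 8.07, 7.84 and 7.92 in tumors (0.48, SE 0.27, adjusted p = 0.485). Nop16 and Polr1b arrays of secondary tumors were all above those of tumors, as were those of 4 more genes, 6 in all, where this held for 7.66% of all genes; for none were they all below (10.5%). With arrays scaled to the same median absolute deviation 16 of the 35 genes were called higher here, and under that scaling the median of all genes moved to 0.30 and 54 of 66 ribosomal protein genes were called higher as well.

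Under the mmm code the tumors did not show the pattern of the dka arrays. Untreated mmm tumors (2 arrays) were set against mmm Group3 neurospheres (4 arrays). Of the 35 genes, 1 rose (Nop56) and 1 fell (Polr1a), where 10.6% of all genes rose and 11.5% fell (22.1% called). The median was -0.07, against -0.05 over all genes, with 13 positive and 22 negative. Most differences over all genes were negative too. Nop56 read 11.87 and 11.82 in tumors, against 11.59, 11.51, 10.99 and 11.31 in neurospheres, and rose by 0.50 (SE 0.14, adjusted p = 0.0175). Polr1a read 7.52 and 7.35 in tumors, against 8.13, 8.10, 8.11 and 8.30 in neurospheres, and fell by 0.72 on the log2 scale (SE 0.24, adjusted p = 0.0362). Neither gene overlapped between the groups; in all, 4 genes were higher and 7 lower without overlap, where 19.6% and 23.8% of all genes were.

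Both calls rest on few arrays. Without neurosphere replicate 7 only the Nop56 call was left, with 18.6% of all genes called and a median of -0.05 for the 35 genes. Leaving out tumor replicate 4 or 5 leaves a lone tumor array, so no calls are given for those refits. Without neurosphere replicate 6 there were 6 calls, and the share of all genes called in that refit is not given here. Over all recomputed settings the median difference of the 35 genes ran from -0.38 to -0.01. Rrp12, which led in dka, read 7.38 and 7.45 in mmm tumors, against 7.49, 7.57, 6.86 and 7.14 in mmm neurospheres, and these overlapped. In neurospheres Rrp12 averaged 7.27 ± 0.33 in mmm (SD, n = 4) and 7.46 ± 0.57 in dka (SD, n = 3), on differing value scales. In tumors it averaged 7.41 ± 0.05 in mmm (SD, n = 2) and 9.35 ± 0.29 in dka (SD, n = 3).

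The difference between the codes in tumors against neurospheres was tested as an interaction in the same fit; it carries the doubt given above on how the mmm values were made. It was negative (mmm minus dka) for all 35 genes, and 20 of them passed, all lower in mmm, where 4.8% of all genes were lower and 4.36% higher (9.17% called). The median was -0.82, against -0.03 over all genes. Polr1a had the largest difference, -1.90 (SE 0.33, adjusted p = 0.00288), then Wdr75 at -1.76 (SE 0.39, adjusted p = 0.0118) and Rrp12 at -1.74 (SE 0.42, adjusted p = 0.0155). Wdr75 read 4.93 and 4.89 in mmm tumors, against 5.75, 4.98, 5.11 and 6.44 in mmm neurospheres, so its mmm tumors lay at the bottom, whereas its dka tumors were the higher group. Fbl (-0.19, adjusted p = 0.510), Nop56 (-0.23, adjusted p = 0.501) and Npm1 (-0.32, adjusted p = 0.232) did not pass. Without neurosphere replicate 7 there were 13 calls of the 35, at 5.95% of all genes, and a median of -0.84. The mmm tumors were only 2 arrays, and leaving out either leaves a lone array. Over all recomputed settings the median difference of the 35 genes stayed between -1.53 and -0.72. The code stands for a set of arrays only, and what differed between the sets cannot be told apart from the tumors they hold.

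**Figure D4:**
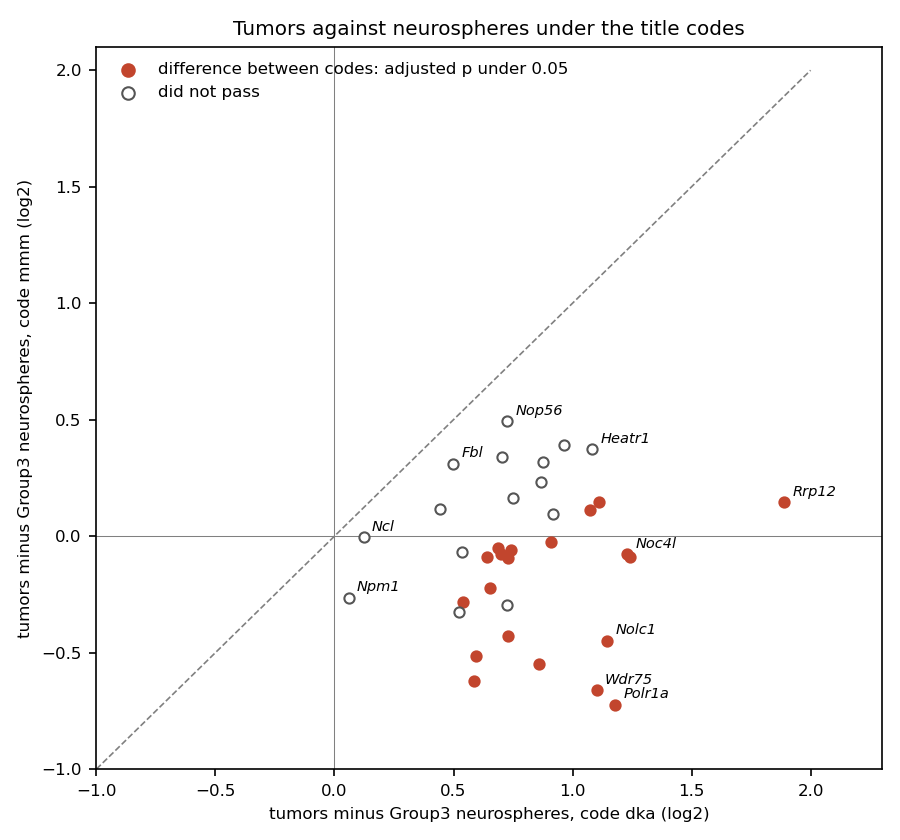
Log2 difference of tumors over Group3 neurospheres for each of the 35 ribosome biogenesis genes in mmm (vertical axis) and in dka (horizontal axis); the dashed diagonal marks equal differences, and filled points passed the test of the difference between codes. Every point lies below the diagonal, with Rrp12 at 0.14 in mmm and 1.89 in dka, and Polr1a at -0.72 in mmm and 1.18 in dka.

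Other lists moved with the code. Of the 103 other ribosome biogenesis genes, 22 were lower in mmm minus dka and none higher (median -0.53), led by Dhx37 (-1.81), Nmd3 (-1.75) and Ddx56 (-1.71), whereas 0 of 66 ribosomal protein genes passed (median -0.09, or -1.03 with scaled arrays). Proliferation markers had 4 of 12 lower (median -0.73). Mature neuron markers had array means of 8.84 and 9.06 in mmm tumors, against 3.78 to 5.64 in mmm neurospheres, and 6.18 to 6.65 in dka tumors; 10 of 12 rose in mmm tumors, with a median of 5.08. Oligodendrocyte markers rose for 6 of 7 in mmm tumors (median 3.47) and microglia and macrophage markers for 15 of 15 (median 4.13). Endothelial markers rose for 8 of 12, fibroblast and pericyte markers for 4 of 8, red blood cell genes for 3 of 4 and granule lineage markers for 2 of 7; astrocyte markers rose for 3 of 8 and fell for 1, and proliferation markers fell for 6 of 12. The part of these cell markers in the ribosome biogenesis values was not tested.

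The drug-treated tumors, all mmm, were set against the 2 untreated mmm tumors, which asks whether the pathway differs after each drug. None of the 35 genes passed in any of the 3 comparisons. After pemetrexed 0% of all genes were called, after gemcitabine 0%, and after both drugs 0.076% (0.0526% higher, 0.0234% lower). At an unadjusted p under 0.05 there were 5 of the 35 genes after pemetrexed (807 of all genes), 6 after gemcitabine (1472) and 2 after both drugs (1350). The 3 comparisons share the untreated arrays, so their values are given side by side. Median differences of the 35 genes were 0.34 after pemetrexed, 0.28 after gemcitabine and 0.25 after both drugs, against 0.05, 0.05 and 0.03 over all genes. Positive differences numbered 35, 31 and 33 of 35, where 57.8%, 58.3% and 54.6% of all genes were positive.

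Polr1a had the largest difference after gemcitabine and after both drugs. It read 8.20 and 7.91 after pemetrexed, 8.45, 8.51 and 7.78 after gemcitabine and 8.79, 7.98 and 7.88 after both drugs, against 7.52 and 7.35 in untreated tumors. Every treated array was above both untreated arrays. The differences were 0.62 (SE 0.28, adjusted p = 0.9999) after pemetrexed, 0.81 (SE 0.25, adjusted p = 0.429) after gemcitabine and 0.78 (SE 0.25, adjusted p = 0.436) after both drugs. Among refits that left out each array in turn, that without gemcitabine replicate 3 gave a gemcitabine difference of 1.05 for Polr1a. It was then the 1 gene of the 35 called. The share of all genes called in that refit is not given here, so this call is not read as a drug response.

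Noc3l, a large subunit factor, read 7.87 and 7.05 after pemetrexed and 7.61, 7.86 and 7.16 after gemcitabine, against 6.92 and 6.74 in untreated tumors. Its differences were 0.63 (SE 0.28) and 0.71 (SE 0.26, adjusted p = 0.448 after gemcitabine), and no treated array overlapped the untreated ones. Wdr75 read 5.79, 5.53 and 5.18 after both drugs, against 4.93 and 4.89 in untreated tumors (0.59, SE 0.30, adjusted p = 0.651), from a dim probe set. Nop56 differed by 0.00 after pemetrexed, -0.26 after gemcitabine and -0.01 after both drugs. For 31 of the 35 genes both pemetrexed arrays lay above both untreated arrays, where this held for 30.3% of all genes, and for 0 both lay below (20.3%). For gemcitabine 18 genes were above without overlap and 1 below (20.4% and 9.38% of all genes), and for both drugs 18 and 0 (22.2% and 16.4%).

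Mature neuron markers read high in the untreated mmm tumors. Array means of the 12 mature neuron markers were 6.86 and 8.01 after pemetrexed, 7.10, 5.86 and 9.09 after gemcitabine and 6.44, 8.09 and 7.75 after both drugs, against 9.06 and 8.84 in untreated tumors. Gemcitabine replicate 3, the 1 treated array above both untreated tumors in neuron markers, had the lowest mean of the 35 genes among the treated arrays, 9.11. The treated array lowest in neuron markers, gemcitabine replicate 2, had a mean of 9.50, while the highest treated mean, 9.52, was on an array of both drugs. Oligodendrocyte markers were lower after treatment by medians of 1.52, 1.48 and 1.57 on the log2 scale and none passed; proliferation markers had medians of 0.47, 0.48 and 0.48, with none passing. Astrocyte markers had medians of -0.74, -0.80 and -0.84, with none passing, and 1 granule lineage marker passed, higher after both drugs. In the same order, group means of microglia and macrophage markers were 7.94, 7.75 and 7.66, against 8.05 in untreated tumors. Those of red blood cell genes were 7.36, 7.97 and 8.82, against 8.28. The part of these cell markers in the drug comparisons was not tested. The 103 other ribosome biogenesis genes had medians of 0.26, 0.22 and 0.22, and the 66 ribosomal protein genes 0.02, 0.00 and 0.03 (0.40, 0.49 and 0.20 with scaled arrays), with none called.

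**Figure D5:**
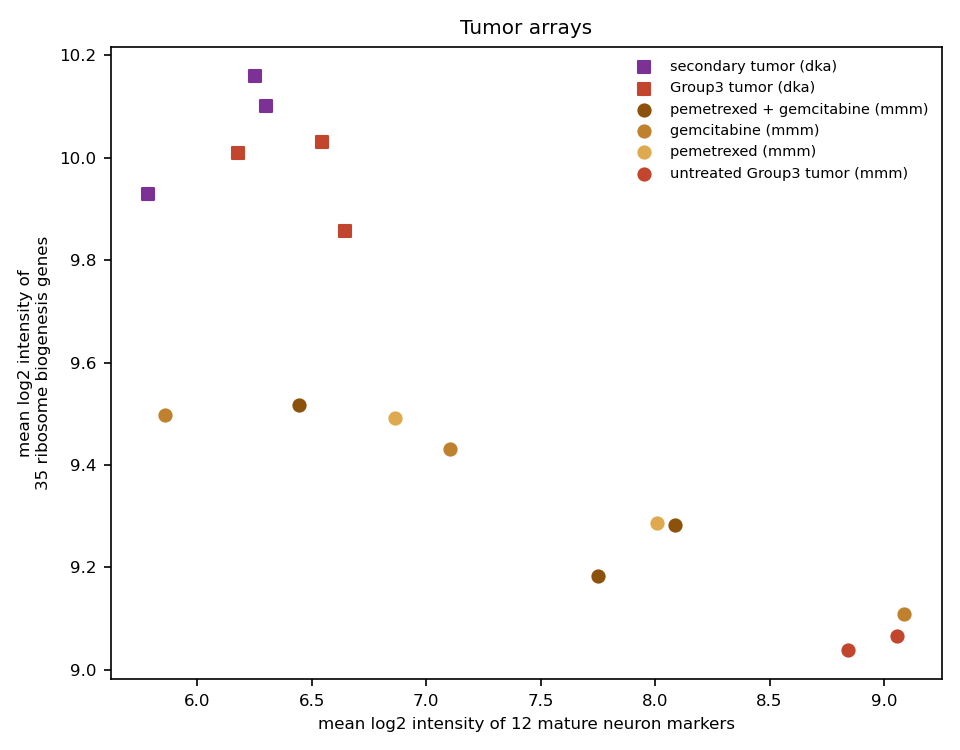
Mean log2 intensity of the 35 ribosome biogenesis genes (vertical axis) against the mean of 12 mature neuron markers (horizontal axis) on the tumor arrays; each point is 1 array, squares are dka, circles are mmm, and colour is the group. The 3 mmm arrays highest in neuron markers (8.84 to 9.09) have ribosome biogenesis means of 9.04 to 9.11, and the mmm array lowest in them (5.86) has 9.50.

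The combination was last set against each drug alone. None of the 35 genes passed against gemcitabine or against pemetrexed, and 0% of all genes were called in each; at an unadjusted p under 0.05 there were 0 of the 35 in both, with 898 and 427 of all genes. The medians were -0.02 and -0.06, against -0.03 and -0.02 over all genes. Rrp9 had the largest difference in both. It read 8.30, 7.96 and 7.76 after both drugs, against 8.36, 8.74 and 8.12 after gemcitabine (-0.40, SE 0.25) and 8.58 and 8.13 after pemetrexed (-0.35, SE 0.28), with overlap in each case. Noc3l differed by -0.30 against gemcitabine, and Rcl1 by -0.27 (SE 0.16) against pemetrexed. For Rrp9 against gemcitabine the 95% interval, from limma's moderated SE, ran from -0.92 to 0.12. Arrays of the 2 groups did not overlap for 2 of the 35 genes against gemcitabine, both lower (0 higher), where 6.57% of all genes were lower and 4.42% higher, and for 1 higher and 1 lower against pemetrexed (8.31% and 10.4% of all genes).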

How the data were processed

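The authors deposited log2 expression values of mouse Affymetrix HT MG-430 PM arrays, which per the submitters' processing notes came from RMA (version not given in the sources used here) and Partek 6.6. RNA was extracted with Trizol, amplified with NuGEN Ovation Pico WTA V2 and labelled with NuGEN Encore Biotin, per the labels' protocols; signal near the array background compresses the differences of dim genes. The deposited values were used as they stood.

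Of 45141 probe sets, 104 were controls and 28898 carried 1 gene symbol; a gene took its brightest such probe set on average, giving 17097 genes. A single limma fit (version 3.58.1, R 4.3.3) took in all 26 arrays, estimated a mean for each of 9 pairings of group with title code, moderated the variances by empirical Bayes and adjusted p by Benjamini-Hochberg over all genes, with calls at 0.05. SE is the moderated standard error. No label says that arrays come from separate animals or cultures, so p-values measure only the spread between these samples, which may be technical; replicate numbers follow deposit order. The fit was tested on simulated data with known changes.

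The 35 genes and all lists were chosen with earlier results of these data known. Genes named with values per array were the 3 largest rises and 3 largest falls past 0.05 in a comparison, or the 2 largest differences where none passed, and for other lists the 2 largest past 0.05; further values are given where a role is described and were chosen after being seen. Alternatives were the mean of a gene's probe sets, quantile normalization, scaling of arrays to 1 median absolute deviation, an intensity trend, the compared arrays alone, leaving out the dimmest genes, and leaving out each array. Python 3.11.15 with matplotlib 3.10.9 drew the figures.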

Additional observations from a re-analysis of the deposited data

Results flagged for a closer look

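Tumors against Group3 neurospheres differed between the title codes for 20 of the 35 ribosome biogenesis genes, by an interaction test in the same limma fit, with 9.17% of all genes called. All 20 were lower in mmm minus dka. The log2 differences were -1.90 for Polr1a, -1.76 for Wdr75, -1.74 for Rrp12, -1.59 for Nolc1, -1.41 for Nop14, -1.33 for Rrp9, -1.31 for Noc4l, -1.21 for Noc3l, -1.16 for Gar1 and -1.11 for Wdr12. They were -0.97 for Nat10, -0.96 for Bop1, -0.94 for Ddx21, -0.87 for Pes1, -0.83 for Nop58, -0.82 for Imp4, -0.80 for Nhp2, -0.78 for Wdr74, -0.74 for Rcl1 and -0.73 for Dkc1. The mmm tumors were 2 arrays, so leaving out either leaves a lone array, and no calls are given for those refits. Over the 18 recomputed settings the median difference of the 35 genes stayed between -1.53 and -0.72 (-0.82 as reported).

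In the 4 mmm Group3 neurospheres, 3 of 35 genes had an array set apart by Dixon's criterion, which sets the gap to the next array against the range. Chance meets it in about 1 of 20 groups, so 3 of 35 is not read as a result. Neurosphere replicate 7 was the highest for Polr1a, at a log2 intensity of 8.30 against 8.13, 8.10 and 8.11, and for Rrs1, at 10.6. Neurosphere replicate 6 was the lowest for Noc3l, at 7.24.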

How the results depend on the processing

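For the 35 ribosome biogenesis genes, 129 recomputed summary values stayed close to those reported (counts within 1.5 times) and 16 moved further. The other recomputed values were single-gene differences and median differences of the 35 genes, counted together. Of these, 483 stayed the same, 17 single-gene values lost the call and 3 gained one. The 10 that moved were all medians, by more than the SD between replicates. None of the recomputed single-gene differences changed sign. These covered only the largest differences of each comparison, so the other called genes, Imp4 among them, were not checked for this. With arrays scaled to 1 median absolute deviation, 2 genes were called in Group3 against Trp53 Cdkn2c neurospheres (7 as reported). There were 19 in dka tumors against neurospheres (29) and 16 in secondary tumors against tumors (0). Over all genes, in the same order, 1236, 1275 and 2375 were called higher and 1347, 985 and 87 lower. That scaling also moved the median of all genes, to -0.25 in mmm tumors against neurospheres, -0.33 for the difference between codes, 0.35 in secondary tumors against neurospheres, 0.30 against tumors, 0.15 after pemetrexed and 0.16 after gemcitabine. Under it, calls over all genes were higher for 47.9% in the neurosphere comparison (59.2% as reported), 31.7% in mmm tumors (47.9%), 27.0% between codes (47.6%), 83.1% in secondary tumors against neurospheres (41.2%) and 96.5% against tumors (48.9%). With the mean of a gene's probe sets, 4 genes were called in mmm tumors against neurospheres (2), beside 1734 of all genes higher and 2064 lower.

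Leaving out each array in turn gave 5 to 8 calls in the neurosphere comparison and 24 to 28 in dka tumors. In tumors against Trp53 Cdkn2c neurospheres it gave 25 to 27, and in secondary tumors 28 to 33 against neurospheres and 0 against tumors. In mmm tumors it gave at most 6, and for the difference between codes at most 22. No lower end is given for either, since their refits include those without tumor replicate 4 or 5, which leave a lone array. How few calls would remain is thus not shown by these counts. Every refit of pemetrexed against untreated tumors leaves a lone array, so no count is given for it. In the other drug comparisons, refits without a lone array gave 0 to 1 after gemcitabine, 0 after both drugs and 0 for both drugs against either one. The difference between codes had 11 calls without neurosphere replicate 2 or 3 and 13 without tumor replicate 1 or 2 or neurosphere replicate 7. The share of all genes called is given only for refits without neurosphere replicate 7. Counts from the other refits were not set against the share of all genes called, so how they compare with it is not shown here. A lone array left in a group was assumed to vary like the other groups. No paired analysis was possible because replicate numbers follow deposit order and do not tie samples together. Groups of 2 to 4 arrays limit precision, and Ncl and Wdr75 have little signal over background.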
